A study of Mus musculus with 10 samples.

Results

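The olfactory and vomeronasal receptor genes are the rows of the deposited chromatin accessibility table whose gene symbol starts with Olfr and a digit, with Vmn1r or with Vmn2r. They are 1464 of the 21965 genes in the table: 1135 Olfr genes, 205 Vmn1r genes and 124 Vmn2r genes. The choice rests on the symbols alone and uses no measured value. The question asked of them was how closed they are in fibroblasts and what level they give each library as a background.

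Olfr genes encode the odorant receptors of the nose, and Vmn1r and Vmn2r genes the pheromone receptors of the vomeronasal organ. All are G protein-coupled receptors, encoded mostly in large genomic clusters. A mature olfactory neuron expresses a single receptor gene, and the remaining receptor genes of that neuron are held in heterochromatin marked by histone methylation. A few Olfr genes are also described outside the nose.

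The signal comes from ATAC-seq (transposase cutting of accessible DNA) of mouse embryonic fibroblasts of strain ICR, taken from E13.5 embryos with an Oct4 promoter-GFP transgene. About 50000 cells were used for each library, and the cells had been infected with pMXs retroviruses and kept in mouse ES cell medium. There were 10 conditions with 1 library each: Flag control virus, Sox2, Klf4, Oct4, the Oct4 mutant Oct4-L80A, SKO (Sox2, Klf4 and Oct4 together), SKO with an shBrg1 virus against the chromatin remodeller Brg1, SKO-L80A (Sox2, Klf4 and Oct4-L80A), SKO-L80A in medium with 50 µg/ml vitamin C (Vc), and SKO-L80A with a Gadd45a virus (Ga). The table gives 2 columns per library, called column 1 and column 2 here, which were counted as 1 sample. These are bulk libraries, in which a signal in a few cells and a weak signal in all cells cannot be told apart.

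As a check of the labels, the Sox2 gene had 62.9 and 55.2 in the 2 columns of the library labelled Oct4, against 2.73 and 5.12 in Flag and 75.5 and 87.1 in Sox2. That library is therefore called the library labelled Oct4. At Pou5f1, the gene of Oct4, its signal was 30.8 and 24.2, that of Oct4-L80A 18.98 and 49.6, and that of Flag 0.812 and 1.12. With the Gadd45a virus, the Gadd45a gene gave 36.6 and 41.5, no higher than the 37.3 and 52.1 of SKO-L80A without that virus. The check therefore did not show the Gadd45a virus, and the label of that library stays unchecked. Smarca4, the gene of Brg1, gave 24.4 and 16.6 with the hairpin and 19.8 and 14.7 in SKO, but a hairpin acts on the transcript, so accessibility at the gene does not check it. Of 16 fibroblast marker genes, 11 had a mean signal at or above 6.92, the median over every value of the table, which is used below as the minimum for an open gene. All 15 housekeeping genes reached it, as did 1 of 6 macrophage, 0 of 6 endothelial, 0 of 6 epithelial and 4 of 6 neural markers. With 1 library per condition no significance test was possible, and every difference below is a description of these libraries.

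The DNA around the starts of receptor gene models is unlike that of most genes. Of 1126 placed Olfr genes, 965 have a RefSeq model under 1200 bases, which may hold the coding part alone. Such a start need not be the start of transcription, so receptor windows may differ in kind from those of other genes. Shown here are 7 receptor windows and 1 housekeeping window, to let the letters be seen beside the signal. Each runs from 250 bases before to 50 bases after the start of the RefSeq gene model (GRCm38.p6), 5′ to 3′ on the gene's strand, with every CG dinucleotide in capitals. Olfr1200 (chr2:88768264-88768563, minus strand) and Vmn2r99 (chr17:19361885-19362184, plus strand) lie near the median signal of their families. Olfr212 (chr6:116506266-116506565, plus) has the most CG dinucleotides of all receptor windows. Olfr94 (chr17:37197917-37198216, minus) had the highest signal of the Olfr genes, Olfr957 (chr9:39511669-39511968, minus) and Vmn1r40 (chr6:89713953-89714252, plus) were lower than in Flag in several libraries, and Olfr13 (chr6:43173738-43174037, plus) was highest in the library labelled Oct4. Eif4a1 (chr11:69672374-69672673, minus), a translation initiation factor, had the highest mean of the housekeeping genes.
Olfr1200: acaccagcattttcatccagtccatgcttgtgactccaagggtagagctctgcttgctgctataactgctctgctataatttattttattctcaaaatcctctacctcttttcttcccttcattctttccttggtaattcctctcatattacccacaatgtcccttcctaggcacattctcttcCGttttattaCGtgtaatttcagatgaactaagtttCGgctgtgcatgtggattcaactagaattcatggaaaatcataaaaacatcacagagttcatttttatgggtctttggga
Vmn2r99: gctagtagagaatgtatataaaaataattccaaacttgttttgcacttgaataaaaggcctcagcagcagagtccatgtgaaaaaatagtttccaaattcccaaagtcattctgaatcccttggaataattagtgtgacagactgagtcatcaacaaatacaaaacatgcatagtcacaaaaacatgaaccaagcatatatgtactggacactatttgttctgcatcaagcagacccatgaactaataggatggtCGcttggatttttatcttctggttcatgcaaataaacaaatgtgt
Olfr212: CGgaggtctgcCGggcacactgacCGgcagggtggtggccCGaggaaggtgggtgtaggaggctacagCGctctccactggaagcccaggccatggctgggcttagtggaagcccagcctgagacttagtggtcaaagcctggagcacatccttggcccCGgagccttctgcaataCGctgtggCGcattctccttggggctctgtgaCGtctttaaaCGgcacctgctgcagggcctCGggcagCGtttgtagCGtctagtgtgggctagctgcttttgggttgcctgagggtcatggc
Olfr94: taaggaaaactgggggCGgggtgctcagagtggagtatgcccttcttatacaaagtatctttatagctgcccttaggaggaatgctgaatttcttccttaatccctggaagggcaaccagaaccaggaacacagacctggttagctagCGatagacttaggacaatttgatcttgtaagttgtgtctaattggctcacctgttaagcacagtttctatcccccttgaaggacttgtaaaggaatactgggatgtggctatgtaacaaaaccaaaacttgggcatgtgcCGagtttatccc
Olfr957: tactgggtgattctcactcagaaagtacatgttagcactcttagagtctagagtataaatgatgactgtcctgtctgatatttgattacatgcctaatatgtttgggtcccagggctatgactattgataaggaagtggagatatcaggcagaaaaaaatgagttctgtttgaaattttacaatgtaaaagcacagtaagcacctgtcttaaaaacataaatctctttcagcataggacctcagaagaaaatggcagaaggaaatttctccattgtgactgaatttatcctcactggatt
Vmn1r40: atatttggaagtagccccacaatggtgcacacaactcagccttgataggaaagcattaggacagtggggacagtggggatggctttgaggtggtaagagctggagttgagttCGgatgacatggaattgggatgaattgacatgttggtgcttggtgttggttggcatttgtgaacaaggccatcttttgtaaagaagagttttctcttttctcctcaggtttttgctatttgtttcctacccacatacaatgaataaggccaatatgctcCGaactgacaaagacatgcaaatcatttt
Olfr13: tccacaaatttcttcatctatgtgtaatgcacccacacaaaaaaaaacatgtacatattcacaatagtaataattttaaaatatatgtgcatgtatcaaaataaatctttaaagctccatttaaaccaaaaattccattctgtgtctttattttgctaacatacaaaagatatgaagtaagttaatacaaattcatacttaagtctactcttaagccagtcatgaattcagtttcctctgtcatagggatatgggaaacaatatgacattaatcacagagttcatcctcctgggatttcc
Eif4a1: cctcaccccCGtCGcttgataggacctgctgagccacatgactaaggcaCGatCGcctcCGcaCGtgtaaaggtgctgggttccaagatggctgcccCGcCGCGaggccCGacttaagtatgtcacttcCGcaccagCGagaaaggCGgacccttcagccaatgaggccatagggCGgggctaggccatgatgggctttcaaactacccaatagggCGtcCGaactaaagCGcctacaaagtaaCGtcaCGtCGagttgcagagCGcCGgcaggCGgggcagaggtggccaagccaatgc

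The Olfr1200 window holds 3 CG dinucleotides at 38.7% GC and had a mean signal of 0.188 over the 20 columns. The Eif4a1 window holds 23 at 60.7% GC, with a mean signal of 43.2. Olfr212, with 13 CG dinucleotides at 62.3% GC, nonetheless had a signal of 0.168, and Olfr957, with no CG, had 3.67. Among the 1219 receptors with a RefSeq start window, the median GC content was 35.7% and the median number of CG dinucleotides was 1. The 12537 other genes with such a window had 57.7% and 16. No CG at all was found in 32.1% of receptor windows and in 3.05% of the others.

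Receptors and other genes were also compared within bands of GC content, and the part of base composition in the low signal was not tested beyond this. From 30% GC upwards the receptor median was the lower in each band. Where 35% to 40% of the window was G or C, 413 receptors had a median signal of 0.159 and 371 other genes 0.274, and 1.69% of the receptors against 23.7% of the other genes had a mean of 1 or more. At 45% to 50% GC the medians were 0.497 for 62 receptors and 1.05 for 1505 other genes. At 50% and above, 28 receptors had 0.737 and 9622 other genes 12.1. At 30% to 35% GC the medians were close, 0.162 for 383 receptors and 0.192 for 91 other genes. Below 30% GC the order of the medians was the opposite, with 0.134 for 149 receptors and 0.00203 for 44 other genes. That lower median lay close to the lowest value that many genes share, described below as the floor. A mean of 1 or more was there reached by 0% of the receptors and 18.2% of the other genes.

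Within the receptors the signal also went with the composition of the window. The median was 0.134 below 30% GC, 0.162 at 30% to 35%, 0.159 at 35% to 40%, 0.258 at 40% to 45%, 0.497 at 45% to 50% and 0.737 above. By CG count it was between 0.166 and 0.187 for windows with up to 4 CG, and 0.510 for the 33 windows with 5 or more.

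Short sequence motifs followed base composition as well. TAATTA, the core letters read by LIM homeodomain factors such as Lhx2, stood on either strand in 16.9% of receptor windows and in 4.81% of the windows of all genes. Among windows with less than 40% GC the shares were 19.2% of 945 receptors and 20.4% of 506 other genes, which are close. The TATA box letters TATAAA stood in 39.8% of receptor windows and 13.7% of all, and below 40% GC in 45.8% and 38.3%. The palindromic motif of Ebf factors stood in 0.410% of receptor windows and 0.909% of all. The octamer ATGCAAAT, the letters bound by POU factors such as Oct4, stands in the windows of Vmn1r40 and Vmn2r99 shown above, and was counted after those windows had been read. It stood in 35 receptor windows (2.87%) and in 1.63% of the other genes, and below 40% GC in 2.86% and 4.35%. The searches covered both strands, and TAATTA and TATAAA can overlap at their shared letters, which was not corrected for. The windows of short Olfr models may lie at the coding start, so these shares need not describe promoters.

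Receptor genes had very little signal. The mean over the 20 columns had a median of 0.186 over Olfr genes, 0.136 over Vmn1r genes and 0.0809 over Vmn2r genes, against 8.87 over the 20501 other genes. A mean of 1 or more was reached by 48 receptors (3.28%) and by 74.6% of all genes. The minimum for an open gene was reached by 2 receptors (0.137%), Vmn1r4 and Olfr94, against 52.1% of all genes. In any single column, 12 receptors (0.820%) reached it, against 60.7% of all genes. The label "closed" therefore held for nearly all members, and the exceptions are described by name below.

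**Figure D1:**
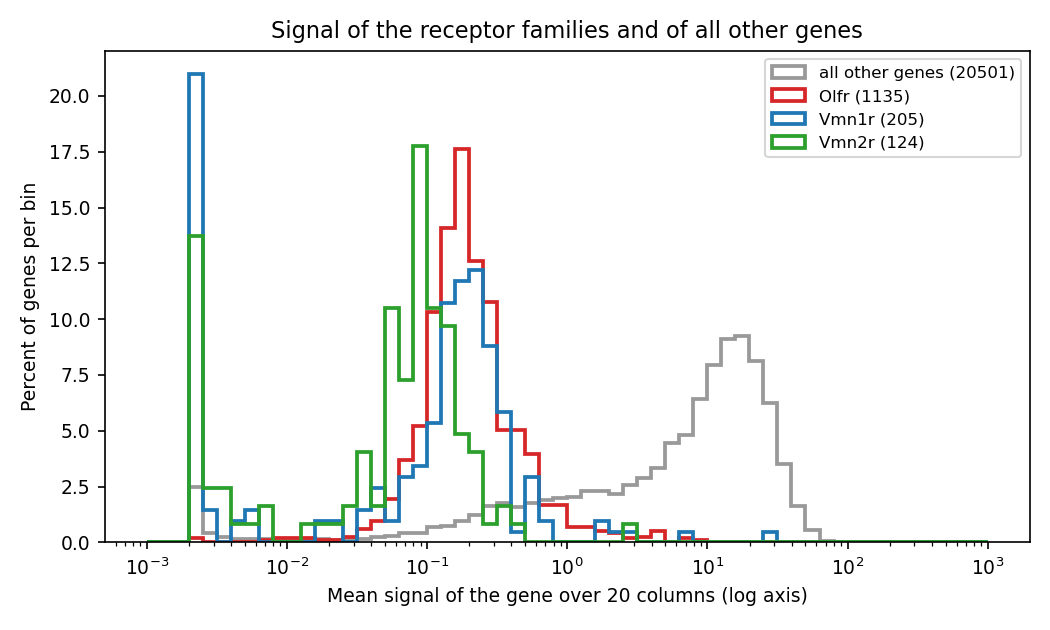
Distribution of the mean signal over 20 columns (log axis) for Olfr, Vmn1r and Vmn2r genes and all other genes, as percent of the genes of each set per bin. The receptor families centre on 0.186, 0.136 and 0.0809, far below the other genes at 8.87, and a part of the Vmn1r and Vmn2r genes stands in a separate bin at the lowest values.

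Odorant receptors of class I, the family branch shared with fish, lie in a single cluster on chromosome 7 (102476773 to 105369317), and 129 Olfr genes were placed there. Their median was 0.216, with a range from 0.0244 to 6.48, and 8 (6.20%) had a mean of 1 or more. The 997 placed Olfr genes elsewhere, taken as class II, had a median of 0.184, and 33 (3.31%) had a mean of 1 or more. The quartiles overlapped widely, at 0.138 to 0.340 and 0.127 to 0.285. Genes with a pseudogene symbol, 43 in all, had a median of 0.151 against 0.172 for the other 1421.

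Vmn1r and Vmn2r genes held nearly all of the receptors at the bottom of the table. In each column 510 to 598 genes shared 1 low value to the last digit, between 0.0004 and 0.0061 depending on the column, and this value is called the floor. No more than 3 genes lay below it in any column. At the floor of at least 1 column were 49 Vmn1r genes (23.9%), 25 Vmn2r genes (20.2%) and 2 Olfr genes (0.176%), against 770 of all genes (3.51%). At the floor of all 20 columns were 30 Vmn1r, 6 Vmn2r and 1 Olfr gene. No receptor was listed at 0. Of the 65 Vmn1r genes between 20101158 and 24055691 on chromosome 7, 47 were at the floor, and the cluster median was 0.00208. Inside that stretch lie 17 other genes of the table. Of these, 14 have Gm symbols, which name predicted gene models and do not say whether they are receptors, and all 14 were at the floor of at least 1 column. The 3 others were never at the floor: V1rd19, a vomeronasal receptor by its symbol that the rule does not take, had 0.0858, Nlrp4e 0.208 and Nlrp5 0.304. Of the 17 Vmn2r genes between 7212996 and 9223653 on chromosome 7, 15 were at the floor. Receptors in clusters can be near-identical copies, and the sources used here do not say how reads that fit several copies were treated, so the values of close relatives are uncertain. Whether a gene at the floor is closed was not tested.

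Genes with close starts had nearly the same values. For 478 pairs of neighbouring genes of any kind whose starts lie less than 1 kb apart, the median absolute log2 ratio of their mean signals was 8.7e-05, and 94.98% of the pairs differed by less than 0.05. For 203 pairs at 3 to 5 kb the median was 0.90. A receptor value near an open gene can therefore hold that gene's signal, and the position of the receptors was examined for this reason.

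RefSeq placed 1451 of the receptors on 19 chromosomes. Receptors less than 500 kb from the previous one were joined, which gave 78 clusters, 22 of them with 20 or more receptors and 17 with only 1. The largest, 224 Olfr genes on chromosome 2 (85330967 to 90282573), had a median of 0.133 and a highest member, Olfr1016, at 0.757. Small clusters were higher: 8 Olfr genes on chromosome 1 (92479681 to 92621001) had a median of 1.07, with a range from 0.583 to 2.45. By cluster size the medians were 0.232 for lone receptors, 0.263 for clusters of 2 to 3, 0.242 for 4 to 9, 0.284 for 10 to 19, 0.172 for 20 to 49 and 0.153 for 50 or more. A mean of 1 or more was reached by 11.8% of the 17 lone receptors and by 2.18% of the 643 in clusters of 50 or more.

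Receptors close to other genes had more signal. Distances were measured for the 1219 receptors with a RefSeq start window, and none of these starts was less than 3 kb from the start of a gene outside the families. They are distances between starts of gene models, with the limit for short Olfr models given above. At 3 to 10 kb, 16 receptors had a median of 0.365, and 31.3% of them a mean of 1 or more. The median was 0.356 for 88 receptors at 10 to 30 kb, 0.230 for 309 at 30 to 100 kb and 0.170 for 399 at 100 to 300 kb. Beyond 300 kb, 407 receptors had a median of 0.138, and 0.246% a mean of 1 or more.

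**Figure D2:**
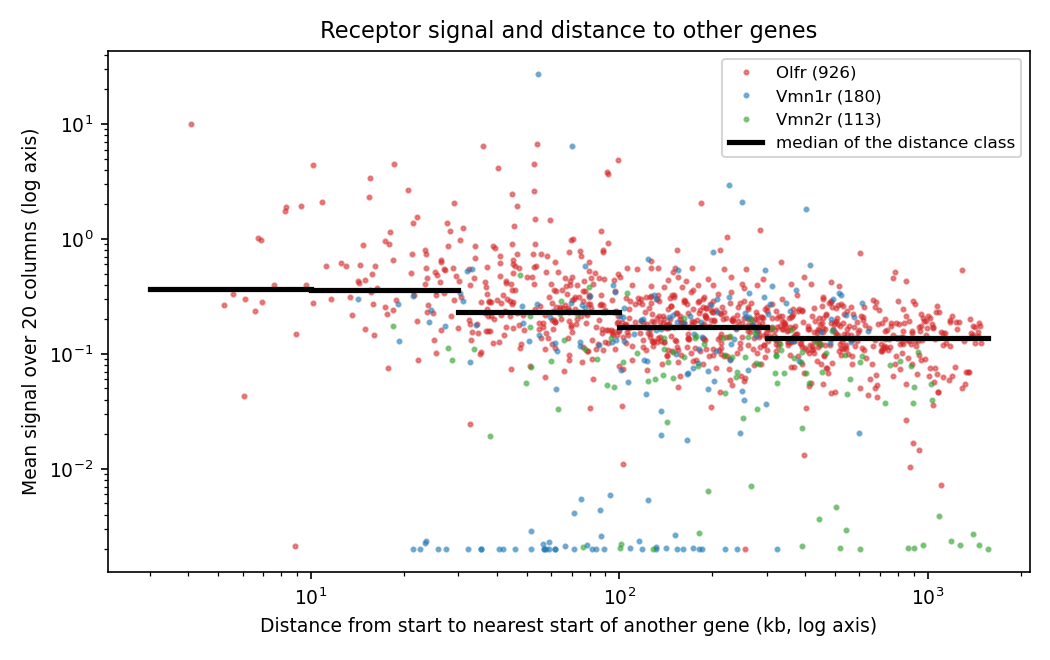
Mean signal over 20 columns of each of the 1219 receptors with a start window against the distance from its start to the nearest start of a gene outside the families (both axes log), with the median of each distance class as a black bar. The medians go from 0.365 at 3 to 10 kb to 0.138 beyond 300 kb, and the row of points near 0.002 holds the genes at the floor.

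Other genes inside the clusters were not closed in the same way. The 209 such genes had a median of 2.55, against 7.69 over all genes. The minimum for an open gene was reached by 77, a share under the 52.1% of all genes. At the floor of at least 1 column were 17 (8.13%), against 3.51% of all genes. In the class I cluster, which also holds the beta-globin genes and a group of Trim genes, 26 other genes had a median of 0.407 and 2 were open, Trim68 with a mean of 16.9 and Trim21, an antibody receptor of the cytosol, with 11.1. The adult beta-globin gene Hbb-bt had 0.179, a value in the range of the receptors around it. Other chemosensory families were as low as the receptors, with a median of 0.192 over 57 trace amine, taste and formyl peptide receptor genes, of which 1 reached the minimum.

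The few receptors with a clear signal were named by the highest level in each family. Vmn1r4 (chromosome 6, 56923914 to 56957608) had a mean of 26.997 and between 13.3 and 43.0 in single columns. Its RefSeq model overlaps that of Nt5c3, a pyrimidine nucleotidase gene (56882400 to 56924008), by 95 bases, and Nt5c3 had the same values to within 0.0326% in every column. Its signal therefore cannot be told apart from that of Nt5c3, although the RefSeq start windows put the 2 starts 54627 bases apart, and the sources used here do not give the gene models behind the table. Olfr94 (chromosome 17, 37196806 to 37197966) had a mean of 9.99, between 3.49 in Sox2 column 1 and 15.8 in SKO-L80A column 2. The nearest other start, of the ubiquitin-like gene Ubd, is 4074 bases away, and Ubd had 3.56. Olfr156 on chromosome 4 had 6.69 and Olfr543, at the edge of the class I cluster, 6.48. Their nearest other starts, of Reck at 54097 bases and Rrm1 at 36207 bases, are farther off.

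Receptors known for other reasons were below the minimum for an open gene, but not all at the general receptor level. The 6 Olfr genes described outside the nose had a median of 0.449, against 0.186 over all Olfr genes. None of 6 Olfr genes described outside the nose reached the minimum: the short-chain fatty acid receptor Olfr78 had a mean of 0.456, Olfr558 0.442, Olfr544 0.738, Olfr1393 0.475, Olfr734 0.158 and Olfr16, also called MOR23, 0.188. Olfr558 and Olfr1393 lie 14996 and 29598 bases from the nearest other start, a distance class with a receptor median of 0.356. Olfr544, Olfr734 and Olfr16 lie at 46612, 37046 and 61714 bases, in the class with a median of 0.230. No distance was measured for Olfr78. The part of position in these levels was not tested. Among often studied receptors Olfr17, known as P2, had 0.269, Olfr160, known as M72, 0.165, Olfr1507, known as MOR28, 0.241, and Olfr73 0.109. The highest of that list was Olfr545 at 1.49, between 0.899 and 2.67 in single columns, and the lowest Vmn2r26 at 0.0331. Vmn2r116, the receptor of the male tear peptide ESP1, had 0.0777. The family C co-receptors of the Vmn2r group, Vmn2r1 to Vmn2r7, ranged from 0.0157 at Vmn2r5 to 0.335 at Vmn2r1, apart from a row named Vmn2r7 (ENSMUSG00000062200) at 2.54. A further row named Vmn2r7 (ENSMUSG00000116028) had 0.0878, so the symbol does not name a single locus.

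The genes that work with the receptors ranged from open to as low as the receptors. Of 17 olfactory transduction genes 7 reached the minimum, a share under the 52.1% of all genes, and their median was 3.43. Ric8b, a chaperone of the olfactory G protein, had 38.6, the G protein gene Gnal 7.08 and the cyclase Adcy3 7.55. The channel subunit Cnga2, part of the transduction channel of the sensory neurons, had 0.258, Cnga4 0.293, and the receptor transporters Rtp1 0.697 and Rtp2 0.979. Of 15 regulators of receptor choice, 12 reached the minimum, among them Lbr, the lamin B receptor, at 33.0, Ldb1 at 15.8, Ebf1 at 18.5 and Lhx2 at 7.12, while the H3K9 methyltransferase gene Setdb1 had 3.15. Of 19 vomeronasal genes 6 reached it, also a share under that of all genes, and their median was 0.684, with the G protein genes Gnai2 at 28.6 and Gnao1 at 13.1 and the channel Trpc2 at 0.678. The 9 H2-M genes of the list, which encode MHC proteins found with Vmn2r receptors, lay between 0.0591 and 0.684, and like Cnga2 and Cnga4 within the range of the receptors.

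As a background, the receptors stood at nearly the same rank in every library but not at the same level. In each column the receptor median lay between the 10.23 and 12.01 percentile of all genes, and 94.5% to 96.8% of the receptors were below the lower quartile of all genes. Their median signal was lowest in Flag column 2 (0.107) and highest in Sox2 column 1 (0.290). By library, with column 1 first, it was 0.224 and 0.107 in Flag, 0.290 and 0.137 in Sox2, 0.239 and 0.186 in Klf4, and 0.278 and 0.156 in Oct4-L80A. The library labelled Oct4 gave 0.133 and 0.141. It was 0.161 and 0.126 in SKO, 0.124 and 0.122 with shBrg1, 0.164 and 0.121 in SKO-L80A, 0.168 and 0.108 in SKO-L80A+Vc and 0.144 and 0.138 in SKO-L80A+Ga. Column 1 was the higher in 9 of the 10 libraries. Over the 10 libraries, column 2 spanned a 1.73-fold range, and the ratio of column 1 to column 2 exceeded that range in Flag (2.08), Sox2 (2.12) and Oct4-L80A (1.79).

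The level of the other genes went the other way in these columns. The median of all genes was 3.38 in Oct4-L80A column 1, 3.99 in Sox2 column 1, 4.45 in Flag column 1 and 5.51 in Klf4 column 1, the 4 lowest of the 20 columns, and the same 4 columns had the 4 highest receptor medians. The upper end of the receptors did not follow: their 95th percentile ranged only from 0.637 to 0.974 over all columns. Relative to the median of all genes, the receptor median was 8.24% in Oct4-L80A column 1, 7.26% in Sox2 column 1, 5.03% in Flag column 1 and 4.33% in Klf4 column 1, and between 1.05% and 2.60% in each of the other columns, of which Klf4 column 2 had 2.56%. The range was 7.82-fold over all columns and 2.30-fold over column 2 alone.

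**Figure D3:**
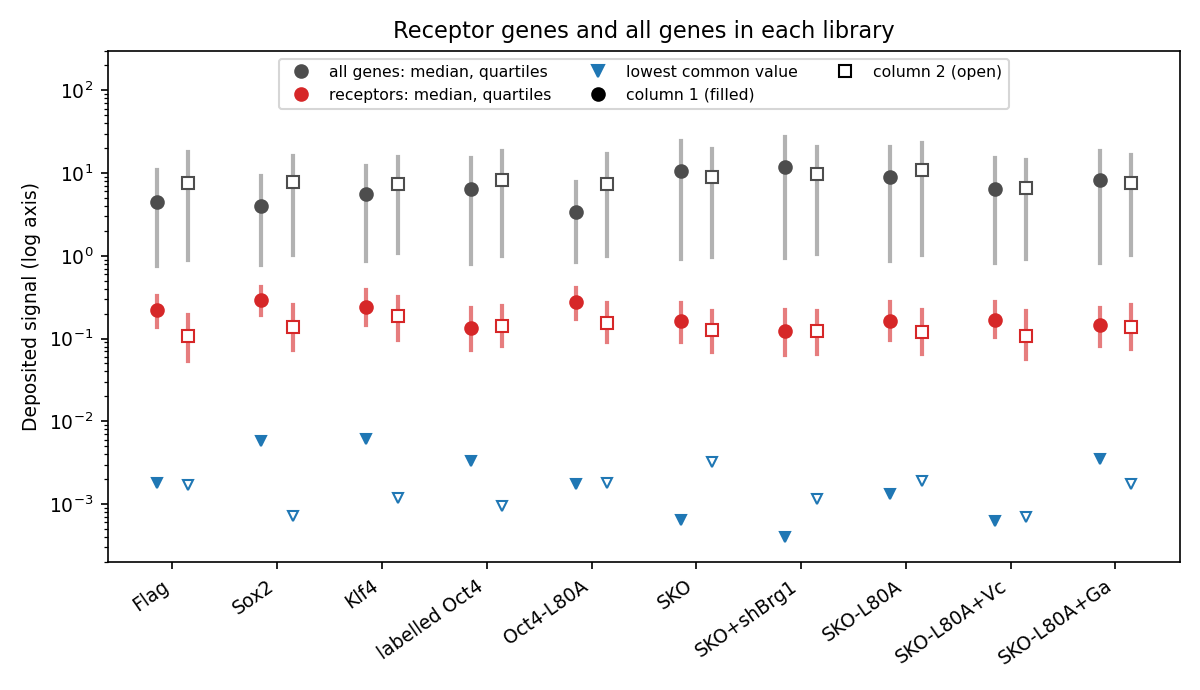
Deposited signal (log axis) in both columns of each library, with the median and quartiles of the receptors in red and of all genes in grey, and the shared lowest value as blue triangles. Receptor medians lie between 0.107 and 0.290, and in column 1 of Flag, Sox2, Klf4 and Oct4-L80A the red and grey medians are closest to each other.

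The mean over both columns of the log2 ratio of the receptor median to the median of all genes ordered the libraries, from the lowest, as SKO+shBrg1 (-6.44), SKO-L80A (-6.12), SKO (-6.09), SKO-L80A+Ga (-5.80), the library labelled Oct4 (-5.71), SKO-L80A+Vc (-5.59), Flag (-5.22), Klf4 (-4.91), Sox2 (-4.81) and Oct4-L80A (-4.59). The SD between the 2 columns was 1.29 in Flag, 1.45 in Sox2 and 1.39 in Oct4-L80A, and between 0.031 and 0.54 in the other 7. Of the 9 pairs of neighbours in this order, 8 were closer to each other than the larger of their SDs, and only SKO and SKO-L80A+Ga, 0.29 apart, were not. On column 2 alone, Flag (1.42% of the median of all genes) stood beside SKO (1.41%).

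The pattern over single receptors was shared by all libraries. Over the 1388 receptors never at the floor, the Pearson correlation of log signals between the columns of a library was between 0.824 and 0.904 (median 0.884, 10 pairs), and between columns of different libraries with the same column number the median was 0.864 over 90 pairs. These are correlations across genes, which share the genome and its base composition, and genes are not independent replicates.

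For comparisons between libraries, 0.138 was added to each signal as a pseudocount, and log2 differences were averaged over both columns. Since this pseudocount is about as large as a typical receptor value, these differences understate ratios of the signal itself. The size rule called a gene that differed by 2-fold or more and had a higher level of 6.92 or above. Only 4 to 6 receptors reached that level in any comparison, against 10177 to 12776 of all genes, so the rule could call few of them. A second rule, added after the values were seen, asked for at least 2-fold in each column with no minimum. The 5 comparisons with Flag share its library, and so do those with SKO-L80A, so their values are given side by side and not as independent results.

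Against Flag, Sox2 had a receptor median difference of 0.18 (0.21 in column 1 and 0.15 in column 2), while all genes had -0.09. The size rule called 0 receptors higher and 1 lower, beside 0.0592% and 0.127% of all genes. In both columns 9 receptors (0.615%) were higher and 6 (0.410%) lower, beside 0.51% and 0.282% of all genes, so the share of higher receptors was near the background. Klf4 had a receptor median of 0.20 (0.07 and 0.31) and 0.03 over all genes. It had 0 receptors higher and 2 lower by the size rule, beside 0.742% and 0.141%, and 10 higher (0.683%) and 4 lower (0.273%) in both columns, beside 1.69% and 0.191%. The share of higher receptors was therefore under that of all genes for Klf4.

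The library labelled Oct4 had a receptor median of -0.06 against Flag, with -0.29 in column 1 and 0.14 in column 2, and 0.18 over all genes. The size rule gave 0 higher and 1 lower, beside 0.355% and 0.0228%, and the rule for both columns 8 higher (0.546%) and 4 lower (0.273%), beside 0.697% and 0.127%. Oct4-L80A against Flag had 0.20 (0.16 and 0.19) over the receptors and -0.16 over all genes. There were 0 receptors past the size rule in either direction, beside 0.00455% higher and 0.0364% lower of all genes, and 2 higher and 1 lower in both columns, beside 0.127% and 0.0956%.

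In SKO against Flag the medians of all genes and of the receptors were far apart in column 1 and close in column 2. All genes had a median of 0.50 (0.97 in column 1 and 0.09 in column 2) and the receptors -0.04 (-0.18 and 0.06). By the size rule 6.18% of all genes were higher and 0.0182% lower, and 0 receptors were higher and 1 lower. In both columns 2.72% of all genes were higher, against 8 receptors (0.546%), and 0.137% lower, against 2 receptors (0.137%). None of the 6 receptors that reached the minimum was among the 1358 genes called higher.

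Among the factor combinations the receptor medians stayed close to 0 in both columns. SKO-L80A against SKO had -0.00 over the receptors (0.01 and -0.01) and -0.00 over all genes (-0.22 and 0.23). The columns of all genes thus had opposite signs that cancel in the mean. It had 0 receptors past the size rule, beside 0.00911% higher and 0% lower, and 1 higher and 1 lower in both columns, beside 0.0364% and 0.0137%. SKO+shBrg1 against SKO had -0.07 over the receptors (-0.13 and -0.02) and 0.09 over all genes, with 0 receptors called in either direction by either rule, beside 0.00455% higher and 0% lower by the size rule and 0.0137% in each direction in both columns. SKO-L80A+Ga against SKO-L80A had 0.01 (-0.06 and 0.06) over the receptors and -0.25 over all genes, again with 0 receptors called by either rule, beside 0% in each direction by the size rule and 0% higher and 0.041% lower in both columns.

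The receptor median was near 0 in the vitamin C comparison, and in that of Oct4-L80A with the library labelled Oct4 it was the highest of the 10 comparisons, through column 1. SKO-L80A+Vc against SKO-L80A had a receptor median of -0.02 (-0.01 and -0.04), while all genes had -0.49. The size rule gave 0 receptors higher and 1 lower, beside 0% and 0.46%. In both columns 0 were higher and 11 (0.751%) lower, beside 0.0455% and 0.669%, a share near that of all genes. Oct4-L80A against the library labelled Oct4 had a receptor median of 0.30, with 0.51 in column 1 and 0.05 in column 2, and -0.40 over all genes (-0.74 and -0.05). The size rule gave 0 higher and 1 lower, beside 0% and 0.769%, and the rule for both columns 0 higher and 8 lower (0.546%), beside 0.0592% and 0.646%. In that comparison 81.0% of the receptors were above 0 and 22.5% of all genes.

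**Figure D4:**
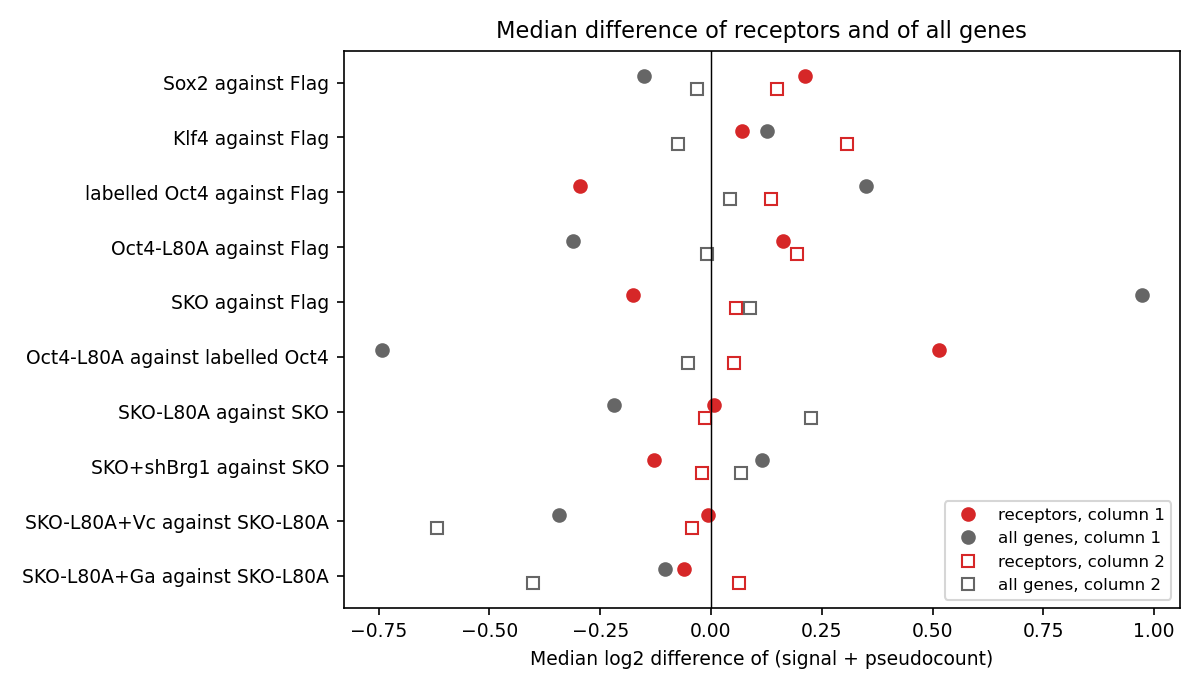
Median log2 difference of signal plus pseudocount for the receptors (red) and all genes (grey) in each comparison, with column 1 filled and column 2 open. Receptor medians lie between -0.29 and 0.51 and differ from the grey ones most in column 1 of SKO against Flag and of Oct4-L80A against the library labelled Oct4.

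The receptors with and without the octamer had overlapping quartile ranges in all 10 comparisons. The 35 receptors with ATGCAAAT in the start window had a median difference of -0.09 in the library labelled Oct4 against Flag, and the 1184 without it -0.05, with quartiles of -0.30 to 0.00 and -0.23 to 0.09. The medians were farthest apart in Oct4-L80A against Flag, at 0.07 with the octamer and 0.21 without, and next in SKO+shBrg1 against SKO, at -0.16 and -0.06. In SKO against Flag they were -0.00 and -0.04. For Oct4-L80A against the library labelled Oct4 they were 0.31 and 0.29.

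Past the size rule were 4 receptors in all, each of them lower and none higher. Of the 2 libraries compared in each call, only the reference reached the minimum, so the high value there is part of the rule. Vmn1r40 was above the minimum in other libraries too, such as the library labelled Oct4 with 6.95 and 8.85. The calls of Olfr957 all rest on the same Flag values. On column 1 alone, the rule called 2 receptors higher for the library labelled Oct4 and 3 for SKO, both against Flag. The share of all genes past the rule on column 1 alone was not counted. The median difference of all genes in that column was 0.35 for the library labelled Oct4 and 0.97 for SKO, so these counts are not read as a gain. Olfr957 (chromosome 9, 39510783 to 39511718) had 6.22 and 11.1 in Flag. It had 1.53 and 2.66 in Sox2, 2.93 and 3.20 in Klf4 and 3.81 and 2.77 in SKO. For the library labelled Oct4 the values were 3.86 and 2.82. In Sox2, Klf4, that library and SKO the differences from Flag were -1.97, -1.40, -1.300 and -1.32. Oct4-L80A, with 2.68 and 6.36, was also below Flag in the same column, and the lowest values were 1.299 and 1.24 in SKO-L80A+Vc. Flag was thus the highest library in each column. The start window of Olfr957 shown above has no CG.

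Vmn1r40 (chromosome 6, 89711261 to 89715135) had 8.25 and 14.2 in Flag and 2.45 and 5.26 in Klf4, a difference of -1.55. Flag was again the highest library in each column. The values were 6.62 and 7.54 in Sox2, 4.32 and 10.46 in Oct4-L80A, 6.95 and 8.85 for the library labelled Oct4, and 7.74 and 6.26 in SKO. SKO-L80A+Vc was the lowest at 2.07 and 1.60, against 6.42 and 7.21 in SKO-L80A. Vmn1r44, farther along the same cluster, was also highest in Flag and lowest in SKO-L80A+Vc: 4.05 and 4.45 in Flag, 1.09 and 1.35 in Sox2, 2.57 and 2.72 in Klf4, and 0.638 and 0.334 in SKO-L80A+Vc against 2.26 and 1.94 in SKO-L80A. In Sox2 it was far lower relative to Flag than Vmn1r40. Vmn1r43, which lies between Vmn1r40 and Vmn1r44, had another order, with 2.56 and 3.37 in Flag, 5.40 and 3.01 in SKO, and its highest value, 6.02, in SKO+shBrg1 column 1.

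Olfr983 (chromosome 9, 40092017 to 40093558) had 1.46 and 3.26 in Oct4-L80A. Its values for the library labelled Oct4 were 8.64 and 6.82, which makes a difference of -1.74 in Oct4-L80A. Flag, with 3.23 and 6.33, lay between them, and SKO-L80A+Vc had 2.57 and 1.24. Olfr433 (chromosome 1, 174041933 to 174042936) had 7.28 and 6.89 in SKO-L80A and 3.14 and 1.804 in SKO-L80A+Vc, a difference of -1.52. The median of all genes was lower by 0.49 in that comparison, which leaves -1.03. The start of the interferon-inducible gene Ifi205 is 10178 bases away.

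Some receptors that stay below the minimum differed in both columns, and those named here were chosen after their values were seen. Olfr874 (chromosome 9, 37745300 to 37747106) had 0.290 and 0.175 in Flag and 2.78 and 3.68 in Sox2, a difference of 3.19, or 9.11-fold on the scale with the pseudocount. For the library labelled Oct4 it stood at 1.57 and 0.918. It had 1.36 and 0.707 in SKO, 0.273 and 0.147 in Klf4 and 0.453 and 0.209 in Oct4-L80A. SKO-L80A stood at 0.840 and 0.499 and SKO-L80A+Vc at 0.282 and 0.315. With the pseudocount added, the libraries above Flag by 2-fold in both columns were Sox2, SKO, SKO-L80A and the library labelled Oct4. On that scale SKO+shBrg1 (1.35 and 0.426) and SKO-L80A+Ga (0.831 and 0.269) were so in column 1 alone, and SKO-L80A+Vc in neither. Without the pseudocount, SKO+shBrg1 was above Flag by 2-fold in column 2 as well.

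Olfr13 (chromosome 6, 43173988 to 43174920) was highest in the library labelled Oct4, at 3.59 and 2.55 against 0.354 and 0.275 in Flag, a difference of 2.81. It had 1.14 and 1.23 in Sox2, 0.452 and 0.560 in Oct4-L80A, 0.551 and 0.799 in SKO and 1.35 and 1.10 in SKO-L80A. The window shown above holds no CG and no octamer. The Vmn2r7 row ENSMUSG00000062200 had 4.43 and 4.002 in Sox2 and 5.02 and 3.05 in SKO, against 0.632 and 1.18 in Flag. Over the 12 columns of Sox2, SKO and the libraries built on SKO it ranged from 2.19 to 5.02. Over the 8 columns of Flag, Klf4, the library labelled Oct4 and Oct4-L80A it ranged from 0.632 to 1.93. The libraries were grouped in this way after the values were seen, and such a split was not counted over all genes. The library labelled Oct4, despite its Sox2 signal, had 1.04 and 1.93. Olfr282 (chromosome 15) went the other way, with 0.929 and 2.52 in Flag, 0.331 and 0.498 in Klf4, 0.229 and 0.379 in SKO, and 0.290 and 0.378 for the library labelled Oct4. The number of receptors that passed this rule was near or under the background in most comparisons, as given above.

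**Figure D5:**
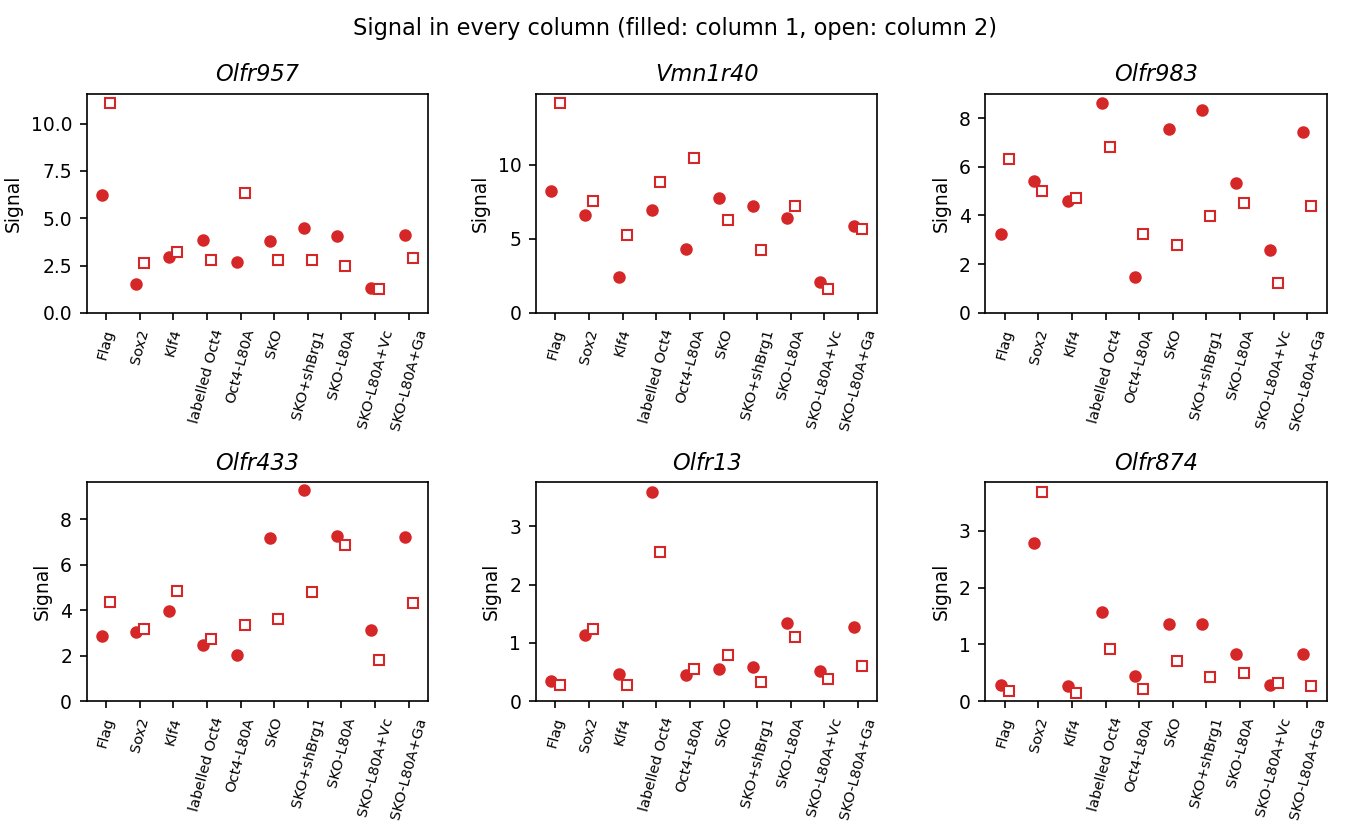
Signal of 6 receptors in both columns of each library (linear axes that start at 0). Olfr957 and Vmn1r40 are highest in Flag, Olfr983 and Olfr433 vary between libraries, Olfr13 is highest in the library labelled Oct4 (3.59 and 2.55) and Olfr874 in Sox2 (2.78 and 3.68).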

How the data were processed

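The deposited table holds an ATAC-seq signal for each Ensembl gene, and the deposited signal was used as the authors gave it. The submitters' processing notes name build mm10. The submitters' processing notes, which give the authors' tools without their roles, list Bowtie2 2.2.5 and Trimmomatic 0.35 with cutadapt 1.13, MACS2 2.1.0, bedtools 2.25.0, DESeq2 1.22.2, Picard, SAMtools 1.3.1 and deepTools. Not given in the sources used here are the window of a gene, the scaling between libraries, the treatment of reads that fit several places and the relation of the 2 columns of a library. The number of reads is not given either, so the depth and counting error of each value are unknown.

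The 2 columns of a library were averaged on the log scale and counted as 1 replicate. Differences are log2 of signal plus 0.138, the 10th percentile of all values above 0, computed over all 21965 genes. The size rule asks for 2-fold and a higher level of at least 6.92, the median of all values, and was tested on simulated data with planted folds. Coordinates and start windows come from RefSeq GRCm38.p6, matched by symbol: 1451 receptors were placed, and 1219 had exactly 1 start window under an unshared symbol. Identical values were found for 37 receptors, each at the floor of all 20 columns.

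The genes named are the 5 highest and the 3 nearest to the median of each family, those past the size rule, short lists of receptors and of genes that work with them, and Olfr957 and Vmn1r40, known from earlier results. Members and lists were chosen with earlier results of these data known. Other named receptors were chosen after their values were seen. Alternatives were either column alone, another pseudocount, quantile normalisation, values relative to all genes, no minimum signal, and smaller sets of receptors. Python 3.11.15, numpy 2.4.6 and pandas 2.3.3 were used.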

Additional observations from a re-analysis of the deposited data

How the results depend on the processing

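No paired analysis was possible because every condition has 1 library, which carries the only replicate number. With 1 library per condition, none could be left out either. A level on 1 of 2 columns lies within the SD between them by construction, so that spread is no test of stability. The levels on column 1 and column 2 were -4.31 and -6.13 in Flag, -3.78 and -5.83 in Sox2, -3.60 and -5.57 in Oct4-L80A and -4.53 and -5.29 in Klf4, and the order of the libraries differed between the columns. No receptor was listed at 0, so keeping only receptors above 0 in every column changed nothing. Without pseudogene symbols and identical values, the level of SKO-L80A+Ga was -5.76, and the other 9 levels moved by less than the SD between columns. With the upper quartile of all genes as the reference, which is higher than the median, the levels that moved by more were -7.25 for SKO, -6.02 for Klf4, -6.92 for the library labelled Oct4, -7.27 for SKO-L80A, -7.58 for SKO+shBrg1, -6.76 for SKO-L80A+Vc and -6.96 for SKO-L80A+Ga. Receptor median differences moved on column 1 alone to 0.16 for Oct4-L80A against Flag and on column 2 alone to -0.0431 for SKO-L80A+Vc against SKO-L80A. A pseudocount 4 times larger gave 0.0803 for Sox2 against Flag and 0.0812 for Oct4-L80A against Flag, and one 4 times smaller 0.28 for Sox2 against Flag and 0.32 for Oct4-L80A against Flag. Quantile normalisation gave 0.00758 for Sox2 against Flag, 0.00678 for Klf4 against Flag and -0.000226 for Oct4-L80A against Flag. Relative to the median of all genes the differences were 0.27 for Sox2 against Flag, 0.36 for Oct4-L80A against Flag, -0.55 for SKO against Flag, 0.69 for Oct4-L80A against the library labelled Oct4, -0.16 for SKO+shBrg1 against SKO, 0.47 for SKO-L80A+Vc against SKO-L80A and 0.26 for SKO-L80A+Ga against SKO-L80A, since the median of all genes itself differed between the libraries. The cause of the other moves was not tested. By the size rule, column 1 alone gave 2 for the library labelled Oct4 against Flag and 3 for SKO against Flag higher receptors, and 0 for Sox2 against Flag, 1 for Klf4 against Flag, 0 for the library labelled Oct4 against Flag and 0 for SKO against Flag lower ones. Column 2 alone gave 2 for Sox2 against Flag, 3 for SKO against Flag and 0 for Oct4-L80A against the library labelled Oct4 lower receptors. The smaller pseudocount gave 1 for Oct4-L80A against Flag as lower, the scale relative to all genes 2 for SKO against Flag (Vmn1r40 beside Olfr957), and quantile normalisation 3 for SKO against Flag and 0 for SKO-L80A+Vc against SKO-L80A. The shares of all genes past the rule were not counted for these settings or for either column alone. These counts therefore have no background beside them. Without the minimum signal more receptors could pass: 21 for Sox2 against Flag, 26 for Klf4 against Flag, 13 for the library labelled Oct4 against Flag, 6 for Oct4-L80A against Flag, 16 for SKO against Flag, 9 for Oct4-L80A against the library labelled Oct4, 1 for SKO-L80A against SKO, 2 for SKO-L80A+Vc against SKO-L80A and 1 for SKO-L80A+Ga against SKO-L80A were higher, and 10 for Sox2 against Flag, 4 for Klf4 against Flag, 10 for the library labelled Oct4 against Flag, 7 for Oct4-L80A against Flag, 9 for SKO against Flag, 12 for Oct4-L80A against the library labelled Oct4, 1 for SKO-L80A against SKO, 23 for SKO-L80A+Vc against SKO-L80A and 2 for SKO-L80A+Ga against SKO-L80A lower. The share of receptors that passed then ran from 0% to 1.78% for higher and from 0% to 1.57% for lower, beside 0.00455% to 9.57% and 0.0228% to 1.81% of all genes. The rule of 2-fold in both columns, chosen after seeing the data, gave 9 for Sox2 against Flag, 10 for Klf4 against Flag, 8 for the library labelled Oct4 against Flag, 2 for Oct4-L80A against Flag, 8 for SKO against Flag and 1 for SKO-L80A against SKO as higher, and 6 for Sox2 against Flag, 4 for Klf4 against Flag, 4 for the library labelled Oct4 against Flag, 1 for Oct4-L80A against Flag, 2 for SKO against Flag, 8 for Oct4-L80A against the library labelled Oct4, 1 for SKO-L80A against SKO and 11 for SKO-L80A+Vc against SKO-L80A as lower. The number of reads behind each value is unknown, and a typical receptor value is close to the pseudocount, so small differences among closed receptors could not be resolved.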

Other observations

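Some libraries held receptors whose values in both columns lay above, or below, every column of the 9 other libraries. Klf4 was above all others at 41 receptors (2.80%) and at 1.57% of all genes, among them Olfr1411 with 2.48 and 2.29 against 0.538 and 0.491 in Flag. Sox2 was above all others at 21 receptors (1.43%), among them Olfr874 and the Olfr1362 gene at 1.23 and 0.799, and at 0.396% of all genes. Oct4-L80A was above all others at 14 receptors (0.956%) and at 0.460% of all genes, and SKO+shBrg1 at 0 receptors and at 1.49% of all genes.

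At the lower end, SKO+shBrg1 was below all other columns at 24 receptors (1.64%) and at 0.364% of all genes, and SKO-L80A+Vc at 16 receptors (1.09%) and at 0.483%. Sox2 and Oct4-L80A were lowest at 0 receptors, beside 0.159% and 0.200% of all genes, which are small shares as well. On the mean of both columns, Sox2, Klf4 and Oct4-L80A also had the 3 highest receptor levels relative to all genes, and SKO+shBrg1 the lowest. Neither column alone gave the same 3 libraries. In column 1 Flag stood above Klf4. In column 2 SKO-L80A+Ga stood above Sox2, and SKO-L80A was the lowest.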
